A study of Mus musculus with 12 samples.

Results

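Apol9a (ENSMUSG00000057346), Apol9b (ENSMUSG00000068246) and Apol6 (ENSMUSG00000033576) are 3 mouse apolipoprotein L genes among the 32416 gene symbols measured in 12 subcutaneous B16 melanomas. They were chosen from the measured values: Apol9a and Apol9b differ strongly in B16F10 between Aoah and Vector tumours and between the Vector tumours of both models, and Apol6 was named with them. In those comparisons their values are therefore given as a description, with no test. All 3 genes were found in the table, and all 3 passed the filter on low values in each of the 4 comparisons.

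The tumours grew in C57BL/6 mice and all received checkpoint antibodies. There were 4 B16mhgp100 Aoah tumours and 4 B16mhgp100 Vector tumours, given anti-PD1 from day 10 after inoculation. There were 2 B16F10 Aoah tumours and 2 B16F10 Vector tumours, given anti-PD1 and anti-CTLA4 from day 6. Aoah tumours over-expressed the gene Aoah, whose product, acyloxyacyl hydrolase, removes acyl chains from bacterial lipopolysaccharide, and Vector tumours carried the vector. Each antibody was given at 200 µg per dose, 2 times per week up to 4 doses, with harvest 1 day after the final dose. Between the models the cell line, the antibodies and the first day change together and cannot be told apart. The labels name neither the promoter of the transgene nor whether the lines are clones. Since they also do not say whether each tumour had its own mouse, the p-values measure only the spread between these tumours, which may be technical.

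Expression is given as TPM, a transcript abundance scaled for transcript length and library total. TPM keeps no read depth, so the depth is unknown and no counting interval is given. The libraries had 13775 to 14791 genes at 1 TPM or more. Aoah stood at 3.91 to 22.5 TPM in B16mhgp100 Aoah tumours and at 0.89 to 7.58 TPM in B16mhgp100 Vector tumours, and the library labelled Aoah 4 was its lowest Aoah value, inside the Vector range. In B16F10 it stood at 21.8 and 23.7 TPM in Aoah tumours, against 1.49 and 0.75 TPM in Vector tumours. The library labelled B16mhgp100 Aoah 4 also stood apart across genes, with a median correlation of 0.83 with the other libraries, against 0.919 to 0.959 for the rest, and had summed keratinocyte and skeletal muscle markers of 4230 and 2310 TPM. Mitochondrial genes took 10.4% of TPM in B16F10 Vector 2, against 2.77% to 6.38% elsewhere. Melanocyte markers (Mlana, Dct, Tyr, Pmel and Sox10) were present in every library, with summed levels of 7300 to 25100 TPM.

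Apolipoprotein L proteins bind lipids and act mostly inside cells, at membranes. The human family is best known for its secreted member APOL1, which kills trypanosomes. Several members are induced by interferons. Mouse Apol9a and Apol9b are known as interferon-stimulated genes that restrict replication of some RNA viruses, and human APOL6 is an interferon-induced gene linked to cell death. Interferons act through JAK kinases and STAT proteins. Their target genes carry DNA elements such as the interferon-stimulated response element (ISRE), mainly for type I interferons, and the GAS element, mainly for interferon-gamma.

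The upstream sequences of Apol9a and Apol9b are shown because these genes had nearly the same profile across the tumours. They are the 250 bases before the first annotated start of each gene, from RefSeq on GRCm38.p6, written 5′ to 3′ on the strand of the gene, at chr15:77411081-77411330 on the minus strand for Apol9a and chr15:77728822-77729071 on the plus strand for Apol9b. The deposited values were made on mm39, so these coordinates are not those of the expression files. Capitals mark 2 overlapping matches to an ISRE-like repeat, searched on both strands with overlaps allowed.
Apol9a: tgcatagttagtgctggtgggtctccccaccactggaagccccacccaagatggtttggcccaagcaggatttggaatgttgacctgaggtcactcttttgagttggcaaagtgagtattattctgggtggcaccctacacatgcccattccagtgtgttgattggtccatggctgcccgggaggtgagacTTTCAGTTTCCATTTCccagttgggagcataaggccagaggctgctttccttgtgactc
Apol9b: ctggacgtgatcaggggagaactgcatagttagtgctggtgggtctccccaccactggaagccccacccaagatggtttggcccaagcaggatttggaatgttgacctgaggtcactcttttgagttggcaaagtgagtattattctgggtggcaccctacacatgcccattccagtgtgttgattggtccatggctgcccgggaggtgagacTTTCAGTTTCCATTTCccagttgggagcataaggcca
Shifted against each other to align, the promoter windows, which run from 250 bases before the start to 50 bases after it, shared 278 bases, and all 278 were identical. Counted from the first annotated start, with negative positions upstream, the capitals began at -59 in Apol9a and at -37 in Apol9b. Counted from the second annotated start of each gene, they began at -105 and at -86.

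The same repeat was found in the windows of 8 of the 11 Apol genes with a promoter entry, which is 72.7% of them, against 1079 of 27025 genes with an entry (3.99%). The matched stretches are shown to compare the family. Capitals mark the matches, and the flanks are in lower case.
Apol9a and Apol9b: gagacTTTCAGTTTCCATTTCccagt
Apol7c: ggggcTTTCTCTTTCCTTTTCtgctt
Apol7e: ggggcTTTCTCTTTCGTTTTCtgctt
Apol10a: ttttcTTTCACTTTCatgca
Apol10b: tttacTTTCATTTTCgtgca
Apol11a and Apol11b: tttacTTTCACTTTCatgca
Apol9a, Apol9b, Apol7c and Apol7e each held 2 overlapping matches, and the others held 1. In Apol10b the match began at -4 and ran past the annotated start, while in the other 7 genes it lay upstream of the start. No match was found in the windows of Apol7a, Apol7b and Apol8. Apol6 and Apol7d have no promoter entry, so neither was searched for the repeat or for the motif below. A GAS-like motif, searched on both strands, was in 3 of the 11 Apol windows (Apol10a, Apol11a and Apol11b), in neither Apol9a nor Apol9b, and in 9.55% of all genes with an entry. These matches describe the letters of the windows and are no evidence of binding.

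**Figure D1:**
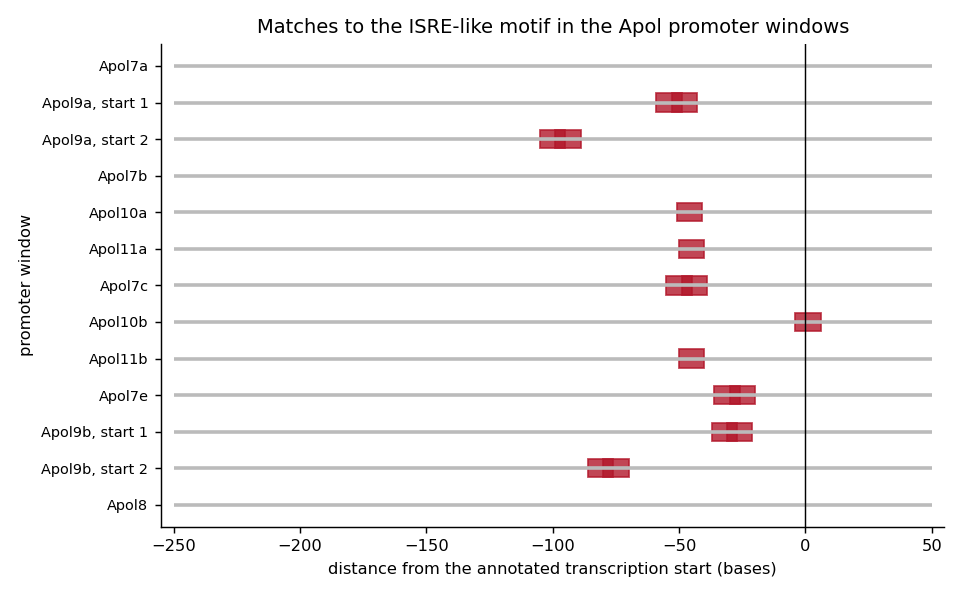
Positions of matches to the ISRE-like repeat (red boxes, darker where 2 matches overlap) in the promoter windows of the Apol genes, in bases from the annotated transcription start (x axis), with 1 grey line for each window. In 8 of the 11 genes with a promoter entry, which leave out Apol6 and Apol7d, a match lies upstream of the start or, in Apol10b, across it.

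RefSeq places 12 protein-coding Apol genes on mouse chromosome 15 between Mb and Myh9, with 1 other protein-coding gene, Rbfox2, among them. The order is Apol6, Rbfox2, Apol7a, Apol9a, Apol7b, Apol10a, Apol11a, Apol7c, Apol10b, Apol11b, Apol7e, Apol9b and Apol8. Apol9a and Apol9b are thus not direct neighbours. Their GENCODE M21 transcripts of 1530 and 1573 bases were identical at 1452 of 1475 aligned bases (98.4%). Of all stretches of 150 bases, the read length of this study, 28.1% of those of Apol9a were also found in Apol9b and 23.7% of those of Apol9b in Apol9a. RSEM divides reads that fit both genes by estimate, so the split between Apol9a and Apol9b is uncertain and their sum is the firmer value. None of these stretches was shared between Apol6 and either Apol9 gene.

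Apol9a was expressed at a similar level in 3 of the 4 groups and was far lower in B16F10 Vector tumours. It stood at 219, 129, 195 and 112 TPM in B16mhgp100 Aoah tumours 1 to 4 and at 133, 145, 165 and 158 TPM in B16mhgp100 Vector tumours 1 to 4. It stood at 125 and 123 TPM in B16F10 Aoah tumours, against 13.4 and 6.50 TPM in B16F10 Vector tumours. Both B16F10 Vector values lay below all 10 others. Fewer cells of a type and less RNA per cell cannot be told apart in these bulk samples. By group mean the order was B16mhgp100 Aoah (164 ± 51.5 TPM), B16mhgp100 Vector (150 ± 14.2 TPM), B16F10 Aoah (124 ± 1.25 TPM) and B16F10 Vector (9.95 ± 4.88 TPM; SD, n = 4, 4, 2 and 2). The first group overlapped both groups next in order, B16mhgp100 Vector and B16F10 Aoah were separated only by the gap between 133 and 125 TPM, and the last stood apart. Among the genes of a library ordered by TPM, Apol9a ranked 722 to 1385 in those 10 tumours and 7876 and 9295 in B16F10 Vector tumours.

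Apol9b followed the same pattern. It stood at 260, 142, 205 and 105 TPM in B16mhgp100 Aoah tumours 1 to 4 and at 148, 151, 176 and 163 TPM in B16mhgp100 Vector tumours 1 to 4. It stood at 144 and 136 TPM in B16F10 Aoah tumours, against 16.4 and 5.79 TPM in B16F10 Vector tumours. The group means were 178 ± 68.3, 160 ± 12.5, 140 ± 5.8 and 11.1 ± 7.5 TPM, in the order used for Apol9a. The ratio of Apol9b to Apol9a stayed between 0.891 and 1.22 in the 12 libraries. Their summed level was 217 to 478 TPM in B16mhgp100 Aoah tumours, 282 to 341 TPM in B16mhgp100 Vector tumours, 258 and 268 TPM in B16F10 Aoah tumours and 29.8 and 12.3 TPM in B16F10 Vector tumours. As a sum, too, the B16F10 Vector tumours lay below all others.

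Apol6 was lower than the Apol9 genes in every library and varied more within the B16mhgp100 model. It stood at 87.9, 45.2, 59.8 and 20.6 TPM in B16mhgp100 Aoah tumours 1 to 4 and at 23.9, 14.7, 62.8 and 62.0 TPM in B16mhgp100 Vector tumours 1 to 4. It stood at 12.3 and 10.9 TPM in B16F10 Aoah tumours, against 3.51 and 2.14 TPM in B16F10 Vector tumours. Unlike Apol9a, Apol6 was lower in both B16F10 groups than in every B16mhgp100 tumour. The group means were 53.4 ± 28.1 and 40.9 ± 25.2 TPM in B16mhgp100 Aoah and Vector tumours (SD, n = 4 each), which overlapped, then 11.6 ± 0.948 TPM in B16F10 Aoah and 2.82 ± 0.969 TPM in B16F10 Vector tumours (SD, n = 2 each). The highest value was 4.25 times the lowest within the B16mhgp100 Aoah group and 4.27 times within the B16mhgp100 Vector group. For Apol9a those ratios were 1.96 and 1.24.

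**Figure D2:**
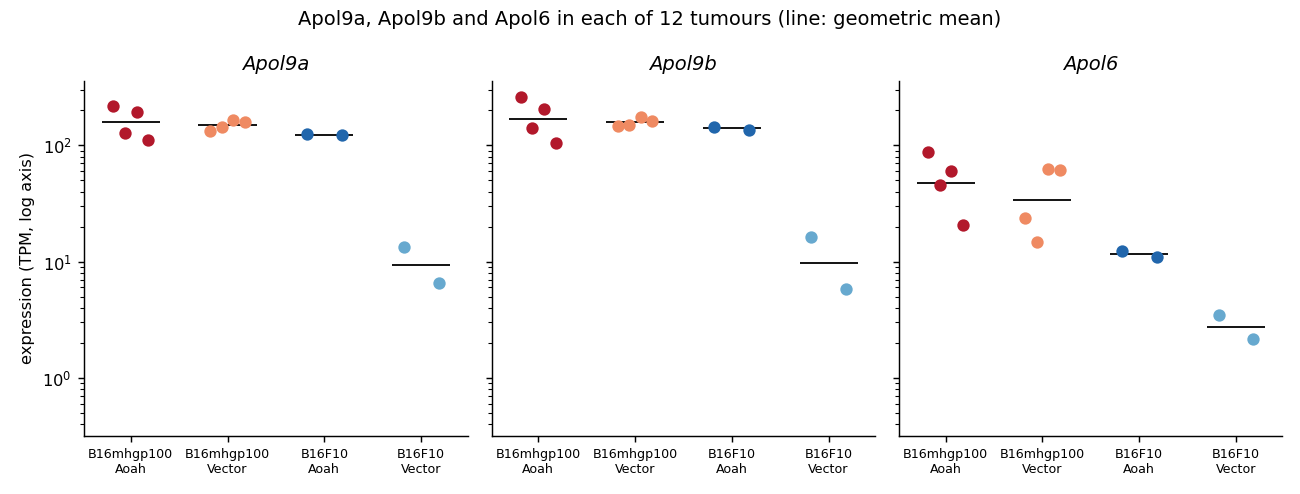
Expression of Apol9a, Apol9b and Apol6 in TPM on a log axis, with 1 point per tumour in order of replicate number and a line at the geometric mean of each group. The 2 B16F10 Vector tumours lie below all others for each gene, and only Apol6 is also lower in B16F10 Aoah tumours (12.3 and 10.9 TPM) than in every B16mhgp100 tumour.

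The level of the Apol9 genes relative to Apol6 overlapped in 3 of the 4 groups. The sum of Apol9a and Apol9b was 5.45 to 10.5 times Apol6 in B16mhgp100 Aoah tumours and 5.17 to 20.1 times in B16mhgp100 Vector tumours. It was 21.8 and 23.6 times Apol6 in B16F10 Aoah tumours, against 8.49 and 5.74 times in B16F10 Vector tumours. The B16F10 Aoah tumours had the highest ratios of the 12, just above B16mhgp100 Vector 2 at 20.1.

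**Figure D3:**
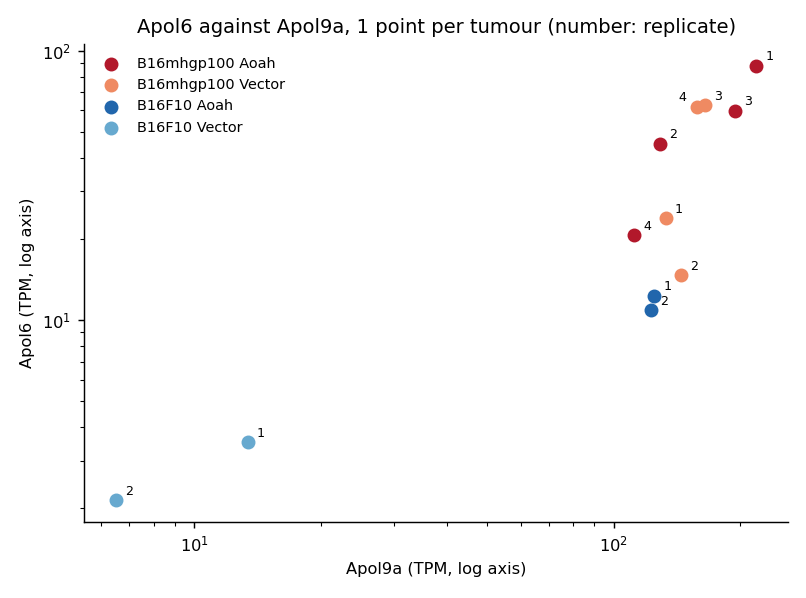
Apol6 (y axis) against Apol9a (x axis), both in TPM on log axes, with 1 point per tumour and its replicate number. At Apol9a levels of 112 to 165 TPM, Apol6 spans 10.9 to 62.8 TPM, and the B16F10 Vector tumours are low for both genes.

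In B16mhgp100 tumours under anti-PD1, Aoah and Vector tumours overlapped for all 3 genes. The choice of genes did not use this comparison, although its Vector tumours also entered the comparison between the models. The Apol9a difference of mean log2(TPM + 1), Aoah minus Vector, was 0.07 (SE 0.238, 95% interval -0.47 to 0.61), with limma's adjusted p at 0.888 and an exact permutation p (2-sided) of 0.8. For Apol9b the difference was 0.08 (SE 0.273, interval -0.54 to 0.70), with limma's adjusted p at 0.893 and an exact permutation p of 0.829. For Apol6 it was 0.44 (SE 0.564, interval -0.83 to 1.72), with limma's adjusted p at 0.721 and an exact permutation p of 0.571. The permutations had 70 arrangements, and the smallest p they can give is 0.0286. None of the 3 passed, nor did any of the 14228 genes tested (percent called 0), while 350 genes (2.46%) had an unadjusted limma p below 0.05. The groups did not overlap for 0 of the 3 genes, against 5.88% of all genes. The intervals still allow changes of 0.61 in either Apol9 gene and of more than 1 in Apol6 on the log2 scale, so these values do not show that the groups are alike. Single tumours set the sign for the Apol9 genes. Without Aoah 1 the difference was -0.09 for Apol9a and -0.13 for Apol9b, and without Aoah 3 it was -0.03 and -0.02. Without the library labelled Aoah 4 it was 0.23 for Apol9a, 0.30 for Apol9b and 0.83 for Apol6. With 1 library left out the Apol6 difference ranged from 0.05, without Vector 2, to 0.83, and was 0.15 without Aoah 1. The median of all genes in this comparison was -0.20, and scaling by the median of ratios shifted it by 0.21. With that scaling the differences were 0.31, 0.32 and 0.68. In the authors' deposited table for B16mhgp100, made with DESeq2, the log2 fold changes were 0.30 (SE 0.205) for Apol9a, 0.31 (SE 0.21) for Apol9b and 0.48 (SE 0.499) for Apol6, with adjusted p-values of 0.812, 0.812 and 0.829.

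In B16F10 tumours under anti-PD1 and anti-CTLA4, the comparison that led to the choice of these genes, all 3 were higher in Aoah than in Vector tumours. The mean TPM was 12.4 times as high for Apol9a, 12.6 times for Apol9b and 4.11 times for Apol6. The differences of mean log2(TPM + 1), Aoah minus Vector, were 3.59, 3.69 and 1.74. This scale understates the change of genes with low values, here Apol6. By the size of the difference Apol9b was in place 21, Apol9a in place 23 and Apol6 in place 280 of 14533 genes. The groups did not overlap for any of the 3, which with 2 tumours a group holds for 50.5% of all genes (28% higher, 22.6% lower), so nothing is read from that count. In the authors' deposited table for B16F10 the log2 fold changes were 3.65 (SE 0.299) for Apol9a, 3.69 (SE 0.363) for Apol9b and 2.03 (SE 0.491) for Apol6. The mean normalised counts behind them, over the 4 libraries, were 976, 983 and 83.9. Without B16F10 Vector 2, the library with the high mitochondrial share, the differences were 3.12, 3.01 and 1.48.

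Markers of other cell types also differed between the same B16F10 tumours, described here with no test. Over all genes 28% were higher and 22.6% lower without overlap, and the marker counts are read against that. All 5 T cell markers (Cd3e, Cd3d, Cd3g, Cd8a and Cd4) were higher without overlap in Aoah tumours, with summed levels of 42.7 and 52.2 TPM, against 6.59 and 1.91 TPM in Vector tumours. The 3 markers of NK cells were also higher, with sums of 3.27 to 6.47 TPM in Aoah tumours, against 0.71 to 1.23 TPM in Vector tumours. Of 6 macrophage markers, 4 were higher and 1 lower, with sums of 649 to 727 TPM in Aoah tumours, against 383 to 396 TPM in Vector tumours. All 4 fibroblast markers (64.8 to 104 TPM in Aoah tumours, 195 to 211 TPM in Vector tumours) and all 3 endothelial markers (17.6 to 20 TPM in Aoah tumours, 42.6 to 60.7 TPM in Vector tumours) were lower. Of 5 melanocyte markers, 3 were higher, with sums of 23700 to 25100 TPM in Aoah tumours, against 14600 to 18200 TPM in Vector tumours. Hepatocyte markers (Alb, Apoa1 and Ttr) were lower, with sums of 6.97 to 48.1 TPM in Aoah tumours, against 60.2 to 97.3 TPM in Vector tumours. The part of these cells in the Apol values was not tested.

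Between the Vector tumours of the models, which also served to choose the genes, B16mhgp100 stood above B16F10 for all 3. The mean TPM was 15.1 times as high for Apol9a, 14.4 times for Apol9b and 14.5 times for Apol6. The differences of mean log2(TPM + 1), B16mhgp100 minus B16F10, were 3.86, 3.88 and 3.23, in places 33, 30 and 68 of 15267 genes by size. The groups did not overlap for any of the 3, as for 34.7% of all genes (21.7% higher, 13% lower), which is again a description. Without B16F10 Vector 2 the differences were 3.39, 3.20 and 2.97, and without B16F10 Vector 1 they were 4.33, 4.56 and 3.50. Among cell type markers, 2 of 3 neutrophil, 1 of 5 T cell and 1 of 3 NK markers were higher without overlap in the B16mhgp100 Vector tumours, and 1 of 3 hepatocyte and 1 of 3 enterocyte markers were lower. Neutrophil sums were 0.83 to 7.87 TPM in B16mhgp100 Vector tumours, against 0.67 to 0.7 TPM in B16F10 Vector tumours. Hepatocyte sums were 6.7 to 41.4 TPM in B16mhgp100 Vector tumours, against 60.2 to 97.3 TPM in B16F10 Vector tumours, and enterocyte sums 8.78 to 51.9 TPM, against 78.8 to 93.9 TPM. No macrophage, fibroblast or endothelial marker was separated. The summed T cell, macrophage, fibroblast and endothelial levels in B16mhgp100 Vector tumours were 5.01 to 16.7, 147 to 795, 76.7 to 416 and 38.8 to 103 TPM, against 1.91 to 6.59, 383 to 396, 195 to 211 and 42.6 to 60.7 TPM in B16F10 Vector tumours. The part of these cells in the Apol values was not tested.

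Between the Aoah tumours of the models the genes parted. Apol9a and Apol9b overlapped, with differences of 0.34 and 0.27 on the log2 scale, B16mhgp100 minus B16F10. Apol6 did not overlap: its mean TPM was 4.59 times as high in B16mhgp100 Aoah as in B16F10 Aoah tumours, with a difference of 1.94 in place 265 of 15399 genes. The groups did not overlap for 32% of all genes, and for 12.2% B16mhgp100 was the higher. Without overlap, 4 of 5 T cell, 3 of 4 dendritic and 4 of 5 melanocyte markers were lower in B16mhgp100 Aoah tumours, while 2 of 3 endothelial, 1 of 3 neutrophil, 1 of 3 skeletal muscle and 1 of 5 melanocyte markers were higher. T cell sums were 8.69 to 12.4 TPM in B16mhgp100 Aoah tumours, against 42.7 to 52.2 TPM in B16F10 Aoah tumours, and melanocyte sums 7300 to 19100 TPM, against 23700 to 25100 TPM. The part of these cells in the Apol6 value was not tested. The B16F10 Aoah tumours also entered the choice of genes, so no test is given. Without the library labelled B16mhgp100 Aoah 4 the differences were 0.51, 0.49 and 2.32. Whether the Aoah difference of these genes itself differs between the models was not tested, since the genes were chosen on both of its ends.

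The rest of the family was expressed at low levels. The table holds 13 Apol symbols, and of the 10 others only Apol10b and Apol7e reached a mean of 1 TPM in a group. Apol10b stood at 8.28, 4.17, 6.35 and 2.93 TPM in B16mhgp100 Aoah tumours, and at 4.44, 1.98, 6.24 and 5.47 TPM in B16mhgp100 Vector tumours. It stood at 2.61 and 2.52 TPM in B16F10 Aoah tumours, against 0.93 and 0.25 TPM in B16F10 Vector tumours. Its lowest values were thus in the same tumours as those of the 3 chosen genes. In limma its log2 differences, 0.22 and 1.20 for Aoah minus Vector in B16mhgp100 and B16F10 and 1.76 for B16mhgp100 minus B16F10 in the Vector tumours, did not pass (limma adjusted p = 0.776, 0.148 and 0.0547). Apol7e ranged over 0 to 1.37 TPM with its highest group mean, 1.06 TPM, in B16F10 Aoah tumours. The other 8 (Apol7a, Apol7b, Apol7c, Apol7d, Apol8, Apol10a, Apol11a and Apol11b) never exceeded 1.00 TPM in a library. Apol11a, whose window holds the repeat, was listed at 0 to 0.09 TPM. Rbfox2, between Apol6 and the other Apol genes, had log2 differences of 0.04 for Aoah minus Vector in B16F10 and 0.47 between the Vector tumours.

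Interferon pathway genes were set beside the 3 genes, in lists written with earlier results of these data known. Of 21 interferon genes, the ligands, 5 were analysed here, and only Ifng, the gene of interferon-gamma, reached 1 TPM in a library. It stood at 2.61 and 2.76 TPM in B16F10 Aoah tumours, against 0 and 0.51 TPM in B16F10 Vector tumours, and averaged 1.98 ± 0.729 TPM in B16mhgp100 Aoah tumours and 1.38 ± 0.625 TPM in B16mhgp100 Vector tumours (SD, n = 4 each). Its log2 differences were 1.58 in B16F10 and 0.91 between the Vector tumours, with limma adjusted p-values of 0.103 and 0.166. The other 4 ligands stayed at or below 0.50 TPM.

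The type I interferon-stimulated list holds 30 genes of antiviral defence, such as Isg15, a ubiquitin-like modifier, and Bst2, the virus-tethering protein tetherin. In the Vector tumours, B16mhgp100 against B16F10, 17 of 30 were higher by limma and none lower, against 4.87% of all genes called (3.01% higher, 1.86% lower). The median log2 difference of the list was 1.43, against 0.12 over all genes. Isg15 averaged 142 TPM in B16mhgp100 Vector and 33.1 TPM in B16F10 Vector tumours (log2 difference 2.11, adjusted p = 0.00864 in limma), and Bst2 averaged 880 and 432 TPM in the same order (1.02, adjusted p = 0.00653 in limma). Ifitm3, the most expressed gene of the list, averaged 896 and 461 TPM in that order (0.98, adjusted p = 0.0298 in limma). It did not pass without B16mhgp100 Vector 1, Vector 3 or Vector 4. The largest difference in the list was 2.96 for Zbp1, a sensor of unusual nucleic acids. The count of 17 depended on single tumours. It was 11 without B16mhgp100 Vector 1, 15 without Vector 2, 5 without Vector 3 and 7 without Vector 4. The calls over all genes moved as well, from 743 to 422, 501, 167 and 288 in these fits. Bst2 passed with any 1 of the 6 tumours left out, and Isg15 did not pass without B16F10 Vector 2.

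The interferon-gamma list holds 24 genes, including immunity-related GTPases such as Irgm1 and Tgtp2 and the immunoproteasome subunit Psmb8. Of 23 tested between the Vector tumours, 14 were higher in B16mhgp100 and none lower, against 3.01% higher and 1.86% lower over all genes. The median was 2.16, against 0.12 over all genes. Psmb8 averaged 415 TPM in B16mhgp100 Vector and 89.1 TPM in B16F10 Vector tumours (log2 difference 2.28, adjusted p = 0.00896 in limma). Tgtp2 averaged 328 and 62.0 TPM in the same order. The largest difference was 3.64 for Cxcl11, a chemokine that attracts T cells. The count of 14 was 5 without B16mhgp100 Vector 1, 12 without Vector 2, 2 without Vector 3 and 3 without Vector 4. The calls over all genes moved in the same fits, as given above. Cxcl11 passed with any 1 of the 6 left out, and Psmb8 did not pass without B16F10 Vector 2.

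In B16F10, Aoah against Vector, 1 of 30 type I genes passed (Bst2, 1170 TPM in Aoah tumours, against 432 TPM in Vector tumours, log2 difference 1.44, adjusted p = 0.0384 in limma). Of 22 interferon-gamma genes 1 passed (Psmb8, 769 TPM in Aoah tumours, against 89.1 TPM in Vector tumours, 3.18, adjusted p = 0.0433 in limma). Over all genes 0.344% passed (0.289% higher, 0.055% lower), and neither call was kept with any 1 of the 4 tumours left out. With scaling by the median of ratios 7 interferon-gamma genes passed, against 127 of all 14533 genes. The direction was nonetheless shared by most genes, with 28 of 30 and 21 of 22 above 0 and medians of 1.11 and 2.34, against 0.02 over all genes. Tgtp1 was highest at 3.27. In B16mhgp100, Aoah against Vector, 0 of 30 and 0 of 23 passed in limma (2 and 1 at an unadjusted p below 0.05, against 2.46% of all genes). The medians were 0.01 and -0.03, or 0.23 and 0.21 with scaling. In the Aoah tumours, B16mhgp100 against B16F10, 0 of 30 type I genes passed in limma. At an unadjusted limma p below 0.05 there were 5, with no share over all genes recorded, so nothing is read from that count. Of 23 interferon-gamma genes 1 passed (Cxcl11), against 0.13% of all genes (0.0584% higher). That call held in 1 of the 6 fits with a tumour left out, the one without the library labelled B16mhgp100 Aoah 4.

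The last list holds 13 receptors and signal transducers. Between the Vector tumours, B16mhgp100 against B16F10, Stat2, a transcription factor of type I interferon signalling, was higher and Il10rb, a subunit of the interferon-lambda and interleukin-10 receptors, was lower. Stat2 had a log2 difference of 2.14 (adjusted p = 0.00896 in limma). Il10rb averaged 63.7 TPM in B16mhgp100 Vector and 189 TPM in B16F10 Vector tumours (-1.55, adjusted p = 0.00577 in limma). The calls of Stat2 and Il10rb were lost without B16F10 Vector 2. In B16F10, Aoah against Vector, none of the 13 passed in limma. At an unadjusted limma p below 0.05 there were 3, again with no share over all genes recorded, so nothing is read from that count. The ISRE-like repeat was found in 13 of 21 type I genes with a promoter entry (61.9%), 11 of 18 interferon-gamma genes (61.1%) and 1 of 11 receptors and transducers (9.09%).

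**Figure D4:**
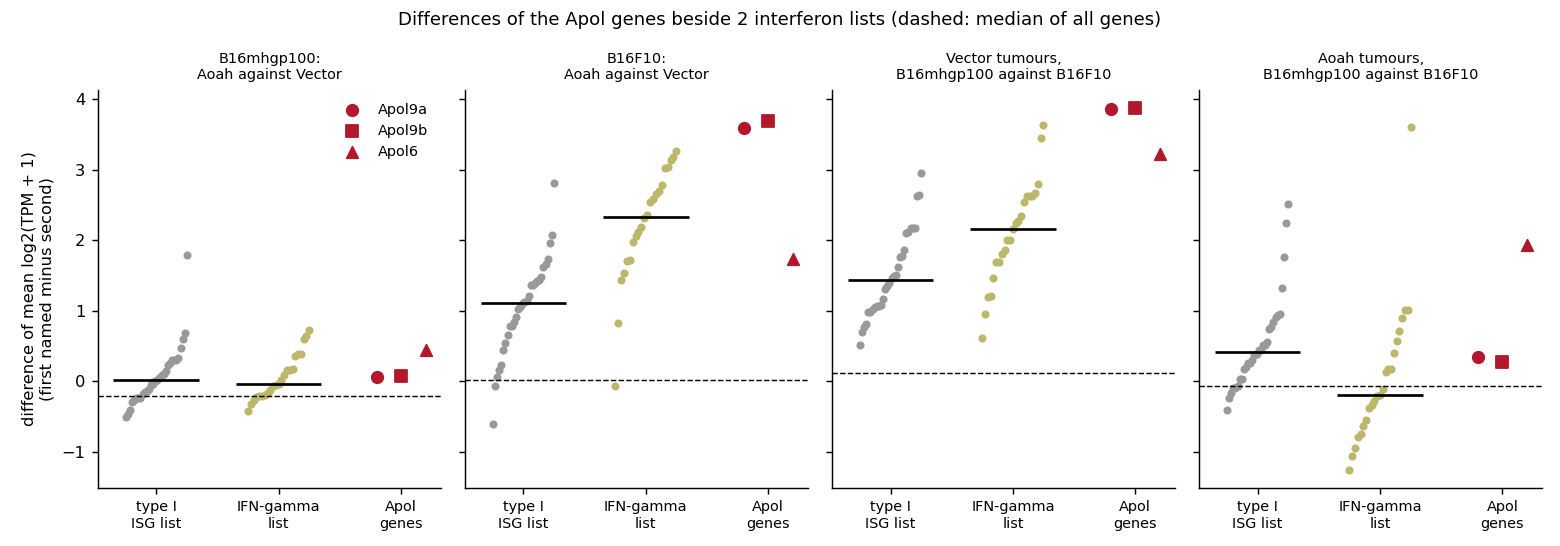
Differences of mean log2(TPM + 1), first named group minus second, in the 4 comparisons for the type I interferon-stimulated list (grey), the interferon-gamma list (olive) and the 3 Apol genes (red). Black lines are list medians and dashed lines the median of all genes. In B16mhgp100, Aoah against Vector, the 3 Apol genes (0.07, 0.08 and 0.44) lie within the range of the listed genes. The Apol9 genes were chosen on the B16F10 and Vector comparisons, so their place there is no result.

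The genes with the profile most like Apol9a were found by the root mean square difference of centred log2(TPM + 1) values over the 12 libraries, among 15588 genes. All points share the same libraries, so the measure is a description. Apol9b was at 0.12, against a median of 1.50 over all genes. The next were H2-T10, a non-classical MHC class I gene, at 0.46, Zbp1 at 0.48, and the immunity-related GTPases Iigp1 at 0.51 and Tgtp1 at 0.56. Oasl2 and Psmb8 (0.64 each), Irf7 and Casp12 (0.65 each), Ifi47 and Ralgps2 (0.66 each) completed the 10. Of these, 6 are in the type I and interferon-gamma lists, which hold 30 and 24 genes beside the 15588 compared. H2-T10, Casp12, Ifi47 and Ralgps2 are in neither. The B16F10 Vector tumours, lowest in all these profiles, also served to choose Apol9a, and the lists were written with earlier results known. Nothing is therefore read from that count. H2-T10 averaged 18.8 and 17.8 TPM in B16mhgp100 Aoah and Vector tumours and 10.6 and 1.57 TPM in B16F10 Aoah and Vector tumours. Ralgps2 averaged 25.3 and 24.1 TPM in B16mhgp100 Aoah and Vector tumours and 10.1 and 3.04 TPM in B16F10 Aoah and Vector tumours.

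Apol6 was nearer to other genes than to Apol9a, from which it stood at 0.79. Its nearest were Cxcl9, a chemokine induced by interferon-gamma, at 0.60, Gbp2, a guanylate-binding GTPase, at 0.62, Casp1, the inflammasome protease, at 0.63, H2-T10 at 0.66 and Zbp1 at 0.68. Within the B16mhgp100 Vector tumours, Apol6 was high in tumours 3 and 4 and low in 1 and 2, and Gbp2 and Cxcl9 were also higher in 3 and 4 than in 1 and 2, while Casp1 was low in tumour 2 only. In Vector tumours 1 to 4, Gbp2 stood at 113, 64.9, 222 and 199 TPM, and Cxcl9 at 24.7, 11.9, 42.9 and 46.5 TPM. Casp1 stood at 41.0, 22.3, 44.5 and 42.6 TPM in the same tumours. Vector 2 was lowest for Apol6, Gbp2, Cxcl9 and Casp1, while Apol9a, at 145 TPM there, was not at its lowest in that group. Both Apol9 genes were nonetheless higher in tumours 3 and 4 than in 1 and 2, over a smaller range. In Vector tumours 1 to 4, Apol9a stood at 133, 145, 165 and 158 TPM and Apol9b at 148, 151, 176 and 163 TPM. The order was not particular to Apol6 and its nearest genes. Of the genes nearest to Apol9a, Tgtp1 stood at 107, 90.8, 290 and 240 TPM and Iigp1 at 102, 69.3, 184 and 156 TPM. Zbp1, Ifi47 and Oasl2 were also higher in Vector tumours 3 and 4 than in 1 and 2. H2-T10, Psmb8, Irf7, Casp12 and Ralgps2 were not.

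**Figure D5:**
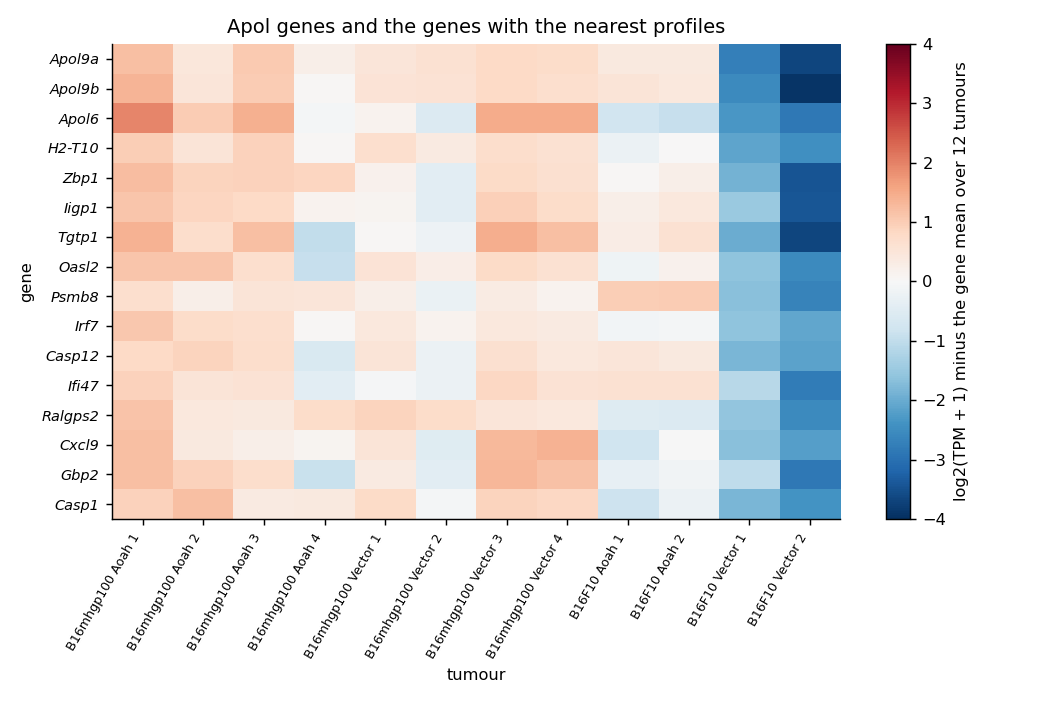
Heat map of log2(TPM + 1) minus the gene's mean over the 12 tumours (colour) for the 3 Apol genes and the genes nearest to Apol9a or Apol6 (rows) in each tumour (columns). The 2 B16F10 Vector columns are lowest in every row. Between B16mhgp100 Vector 2 and Vector 3, Apol9a differs least of all rows (0.618 and 0.807), against -0.535 and 1.488 for Apol6.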

How the data were processed

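PolyA RNA of 12 bulk tumours was sequenced as paired reads of 150 bases, per the labels' protocols. The authors deposited log2(TPM + 1) values for each gene symbol, from RSEM on build mm39 per the submitters' processing notes, and tables of DESeq2 results for each model with mean normalised counts, log2 fold changes and p-values. The mean normalised count is a signal averaged by the authors over a model's libraries. Versions and annotation are not named in those notes. The test score deposited by the authors and the immune repertoire table were not used. Groups were taken from the sample titles. TPM was recovered by removing the pseudocount of 1. Differences of log2(TPM + 1) were fitted by limma 3.58.1 (R 4.3.3) with an intensity trend, 2-sided, with Benjamini-Hochberg adjustment over all genes kept and a threshold of 0.05. A gene was kept if the number of libraries at 1 TPM or more reached the size of the smaller group, and each comparison used only its own libraries. The fit was tested on simulated data. The members and lists were chosen with earlier results of these data known. Named are the 3 members, Apol genes averaging 1 TPM or more in a group, and ligands reaching 1 TPM. The 3 most expressed genes of each list are named too, but of the 3 receptors and transducers so picked only Il10rb. Also named are the 10 and 5 nearest profiles to Apol9a and Apol6. These leave out Apol genes, predicted models and genes reaching 1 TPM in fewer than 3 libraries. Other genes were named after their values were seen. Alternatives were a pseudocount of 0.1 TPM, no filter, median-of-ratios scaling, a fit of all 12 libraries, no trend, a replicate block, and each library left out in turn. Gene identifiers were paired with symbols for 29916 of 31267 (B16mhgp100) and 25784 of 26878 (B16F10) entries, and the sign of the deposited fold changes is Aoah over Vector. Motif patterns were written from general knowledge. Promoter windows are from RefSeq on GRCm38.p6 and transcripts from GENCODE M21. Results for 1 gene of the receptor and transducer list are not reported here.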

Additional observations from a re-analysis of the deposited data

Results flagged for a closer look

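The 4 tumours of each B16mhgp100 group were searched for a single tumour far from the rest, in the 26 genes described above, 52 groups in all. Chance flags about 1 in 20 groups, and 3 were flagged. Casp1, the protease gene with a profile near that of Apol6, was lowest in B16mhgp100 Vector 2 at 22.3 TPM, with the other 3 Vector tumours at 41.0 to 44.5 TPM. Zbp1, near both Apol9a and Apol6, was highest in B16mhgp100 Aoah 1 at 209 TPM, with the other 3 Aoah tumours at 162 to 168 TPM. Il10rb was highest in B16mhgp100 Vector 2 at 77.9 TPM, with the other 3 Vector tumours at 56.8 to 60.2 TPM. None of the 3 chosen Apol genes was flagged.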

How the results depend on the processing

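With a pseudocount of 0.1 TPM, median-of-ratios scaling or 1 library left out, Apol9a, Apol9b and Apol6 stayed higher in B16F10 Aoah than Vector tumours. They also stayed higher in B16mhgp100 than in B16F10 Vector tumours. The other alternatives were not recorded for these genes in those comparisons. In B16mhgp100, Aoah against Vector, none of the 3 passed under any alternative. In B16mhgp100 the difference ranged from -0.09 to 0.23 for Apol9a and from -0.13 to 0.30 for Apol9b with 1 library left out, and both reversed without Aoah 1 (-0.09 and -0.13) or Aoah 3 (-0.03 and -0.02). For Apol6 it ranged from 0.05 to 0.83. Between the Vector tumours it ranged from 3.39 to 4.33 for Apol9a and from 3.20 to 4.56 for Apol9b with 1 library left out. The Apol6 difference in B16F10 was 2.04 with a pseudocount of 0.1 TPM.

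Counts of genes past the threshold moved more, and the cause was not tested. In B16mhgp100 the count of 0 was 1 with a pseudocount of 0.1 TPM, 1 without the trend, and 0 to 2 with 1 library left out. In B16F10 the count of 50 was 32 with that pseudocount, 0 without the filter, 127 with median-of-ratios scaling, 16 without the trend and 0 with any library left out. Between the Vector tumours the count of 743 was 363 without the filter, 324 in the fit of all 12 libraries and 150 to 3709 with 1 library left out (150 without B16F10 Vector 2, 3709 without B16F10 Vector 1). Between the Aoah tumours the count of 20 was 10 with that pseudocount, 53 without the filter, 99 with scaling, 657 with all 12 libraries, 32 without the trend, and 0 to 4268 with 1 library left out (4268 without the library labelled B16mhgp100 Aoah 4). The following were chosen after seeing the data. Type I genes higher between the Vector tumours numbered 5 to 24, and interferon-gamma genes 1 to 19, with 1 library left out. In B16F10 each list had 0 calls with any library left out, and the interferon-gamma list 7 with scaling. A left-out B16F10 library leaves 1 in its group, which is then assumed to vary like the rest.

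Equal replicate numbers did not pair the tumours: same-numbered deviations correlated at -0.25, -0.29, 0.02 and -0.06 in B16mhgp100 and -0.11 in B16F10. With a replicate block the B16mhgp100 count stayed at 0 and the B16F10 count was 765. With the numbers crossed in the block, added after seeing the data, it was 910. No paired fit was made between the models, whose tumours share only a number.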
